A study of Homo sapiens with 4 samples.

Results

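Tropomyosins and other proteins that bind actin filaments are described here through the cassette exons of their genes. The set was defined by 10 genes, TPM1, TPM2, TPM3, TPM4, MYL6, MYO18A, CALD1, CAPZA2, ARPC4 and CTTN. An event belonged to it when its skipped exon, or both flanking exons, matched an exon of one of these genes in GENCODE release 29 on the same strand. This gave 44 events with 44 distinct skipped exons in 9 genes, out of 45977 events in both group summaries. All 44 were matched by the skipped exon itself. No event of TPM2 was matched, and that gene is not analysed here.

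The cells were MDA-LM2, a derivative of the MDA-MB-231 human breast cancer line with raised capacity to colonise the lung. Both groups were transfected with the help of a lipid reagent, one with the SSE mimetic, an RNA, and the other with a scrambled control oligo, and RNA sequencing was done on 2 samples per group. The deposited tables hold 1 read set per group, here the mimetic pool and the scrambled pool, so no value per sample and no spread between samples can be given. Percent spliced in (Ψ) is the fraction of transcripts that keep an exon. It is given as the authors' estimate with its 95% credible interval, which covers counting error only.

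Actin filaments are polymers with a fast-growing barbed end. Tropomyosins are coiled-coil dimers that lie along the filament and set which other proteins can bind it, and much of their variety comes from alternative exons. Capping protein, of which CAPZA2 encodes an alpha subunit, closes the barbed end. The Arp2/3 complex, of which ARPC4 encodes a subunit, starts branches, and cortactin (CTTN) stabilises them. MYL6 encodes the essential light chain of non-muscle and smooth-muscle myosin II, MYO18A an unconventional myosin, and CALD1 caldesmon, which binds actin, myosin and tropomyosin.

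Reads fall into classes by what they match. Inclusion reads match only the form with the exon, skipping reads only the form without it, and shared reads match both. Other reads match neither form. The groups differed in depth. Isoform-specific reads (inclusion plus skipping) over all events numbered 431105 in the mimetic pool and 2039336 in the scrambled pool, and 95.3% and 88.8% of reads matched neither form. In the member exons the isoform-specific reads numbered 4005 and 15410. Of 9 mesenchymal markers listed for the cell line, 7 had a listed exon and all 7 had inclusion reads in both groups, 429 and 3331 in sum, most of them in CD44. Epithelial markers had 160 and 569 inclusion reads, in 4 of the 4 genes with a listed exon (9 genes in the list). Muscle markers had 119 and 187, in 5 of 7 such genes (12 in the list). Markers of blood and endothelium had 39 and 59, in 3 of 4 (7 in the list). CD3E, MYH11 and TNNT2 had a listed exon and no inclusion read. The part of reads from other sources in the values below was not tested.

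Testing required 10 or more isoform-specific reads per group. A call required a Bayes factor, which weighs a difference against no difference, of 10 or more in the authors' deposited table, together with a Ψ difference of 0.1 or more. Of the 44 member exons 24 were tested, in 8 genes. The 80-nt exon of CAPZA2 was called lower in the mimetic pool, no member exon was called higher, and 23 did not pass. Over all 8228 tested exons 0.887% were called lower, 3.1% higher and 3.99% in either direction, so a count of 1 in 24 is near that background and is not a result about the group. The second-highest Bayes factor among the tested members was 3.16. The median difference in Ψ, SSE mimetic minus scrambled, was -0.005 for the members (lowest -0.46, highest 0.09) and -0.03 for all tested exons. For 21 of the 24, Ψ differed by less than 0.1.

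**Figure D1:**
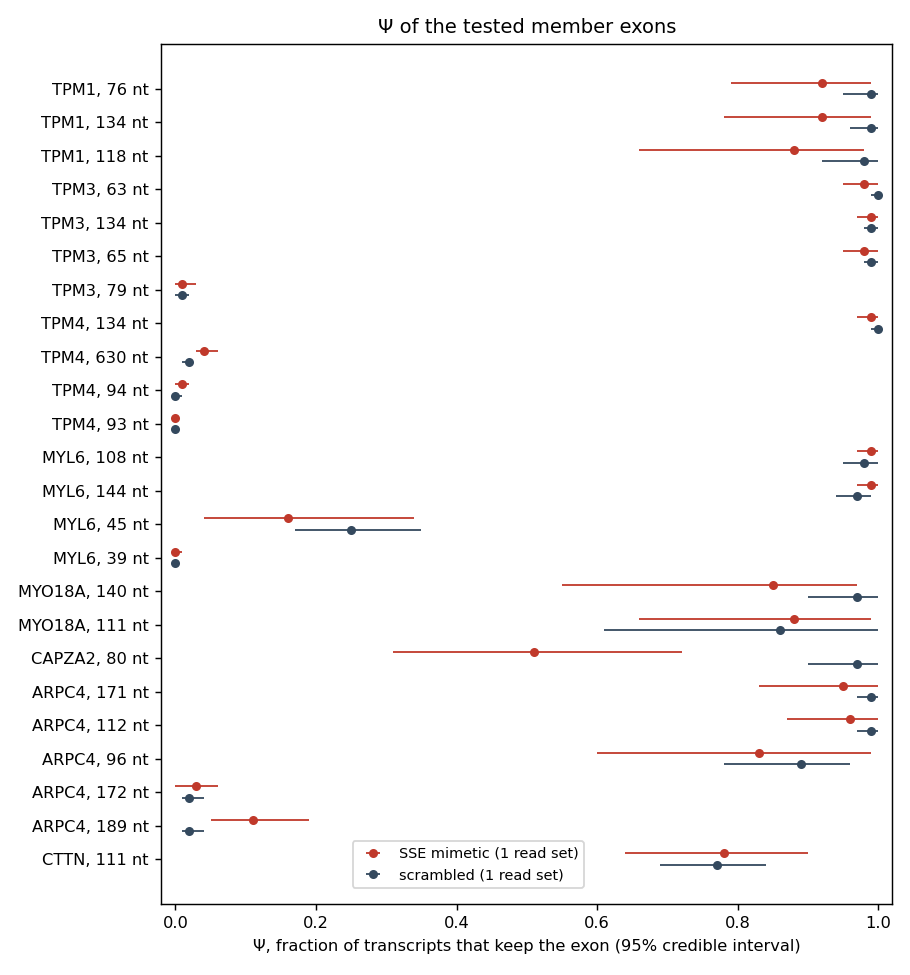
Authors' Ψ (x axis, fraction) of the 24 tested member exons (y axis, by gene and exon length) in the 1 read set of each group, with 95% credible intervals as bars. Most pairs of points lie together near 0 or near 1, and the CAPZA2 exon at 0.51 against 0.97 is the pair that lies farthest apart.

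Most tested members sat at an extreme. With the scrambled oligo 13 had a Ψ of at least 0.9, 7 had at most 0.1 and 4 lay between. Among the 13, the difference was below 0 for 10 and above 0 for 2, with a median of -0.03. In the 3965 tested exons of the table with a scrambled Ψ of at least 0.9, it was below 0 for 3752, with a median of -0.07. Among the 7 low exons, 4 were higher in the mimetic pool and none lower, with a median of 0.01, against 0.04 for the 1042 low exons of the table. Exons of high scrambled Ψ thus tended to have lower values, and exons of low scrambled Ψ higher values, in the mimetic pool. This was so for members and for the table alike. The grouping itself sets these signs in part, because scrambled Ψ also enters the difference and Ψ cannot leave the range of 0 to 1. A link with the number of reads was not tested. Credible intervals were apart for 3 member exons, in CAPZA2, ARPC4 and TPM4, while 5.87% of all tested exons had intervals apart.

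**Figure D2:**
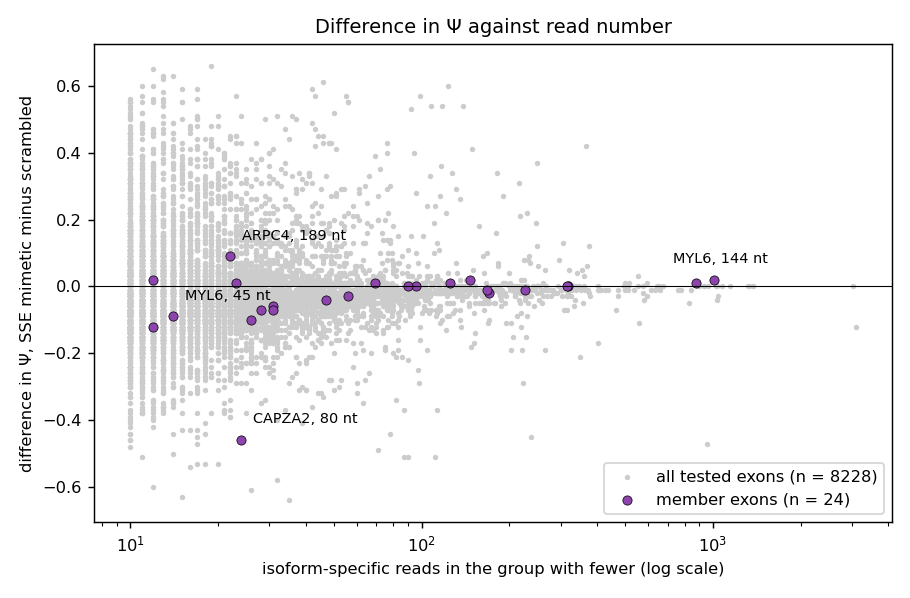
Difference in Ψ (y axis) against the isoform-specific reads of the group with fewer (x axis, log scale) for all 8228 tested exons in grey and the 24 member exons in purple. The CAPZA2 exon at -0.46 lies apart from the other members, which lie between -0.12 and 0.09.

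CAPZA2 had 2 listed exons. The called exon lies on chromosome 7 from 116906263 to 116906342 (hg38, plus strand), is coding, and is the sixth exon of the coding transcript CAPZA2-201. Its length of 80 nt is not a multiple of 3, so its loss would shift the reading frame. Its Ψ was 0.51 (0.31 to 0.72) in the mimetic pool and 0.97 (0.90 to 1.00) in the scrambled pool, a difference of -0.46 with a Bayes factor of 2646.89 in the authors' deposited table. The read classes behind these values are 24 inclusion, 0 skipping and 98 shared reads in the mimetic pool, and 185, 0 and 274 in the scrambled pool. No skipping read was seen in either group, which allows a skipping share of isoform-specific reads of up to 12.5% and 1.62%. The share of inclusion reads was therefore 1 in each group. A two-sided Fisher's exact test of inclusion against skipping reads, Benjamini-Hochberg adjusted over all tested exons, gave an adjusted p of 1 for it, the only value this test can take where no read skips the exon. The difference in Ψ came with the number of shared reads per inclusion read, which was 4.08 in the mimetic pool and 1.48 in the scrambled pool.

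The exon and the short downstream flank of its event are shown because the event's outline bears on which reads can count. Sequences are from GENCODE 29 transcripts (GRCh38), 5′ to 3′. Capitals mark the annotated stop codon.
CAPZA2 80-nt exon: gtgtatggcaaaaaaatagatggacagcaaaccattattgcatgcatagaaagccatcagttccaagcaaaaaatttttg
CAPZA2 downstream flank: ctgctgtttttattttTAA

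The downstream flank runs from 116910213 to 116910231 and is 19 nt long. It is the last exon of the annotated coding transcript CAPZA2-214, in which the stop codon follows 16 coding bases. CAPZA2-201 instead joins the 80-nt exon to an exon that starts at 116910233, which is 2 nt past the end of that flank. Reads across the CAPZA2-201 junction match neither form of this event. One annotated noncoding transcript joins the upstream flank straight to 116910213, and a skipping read has to cross that junction. For reads of 76 nt, the length that came closest to the authors' Ψ, the event holds 99 start positions for inclusion reads, 19 for skipping reads and 132 for shared reads.

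The CAPZA2 ratio can be set against other exons that also had no skipping read in either group and shared reads in both. There were 4077 such tested exons, and the fold between the groups in shared reads per inclusion read had a median of 1.04 over them. It was 2.76 for CAPZA2, and 250 of the 4077 had a fold at least as large. Of the 8 member exons of this kind, 6 had more shared reads per inclusion read in the mimetic pool, with a median fold of 1.46. The second CAPZA2 exon, of 81 nt (116880067 to 116880147), is annotated in 1 transcript marked for nonsense-mediated decay, the pathway that degrades RNAs with an early stop codon. It was not tested. It had 8 skipping reads in the mimetic pool, 43 in the scrambled pool, and no inclusion read in either.

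**Figure D3:**
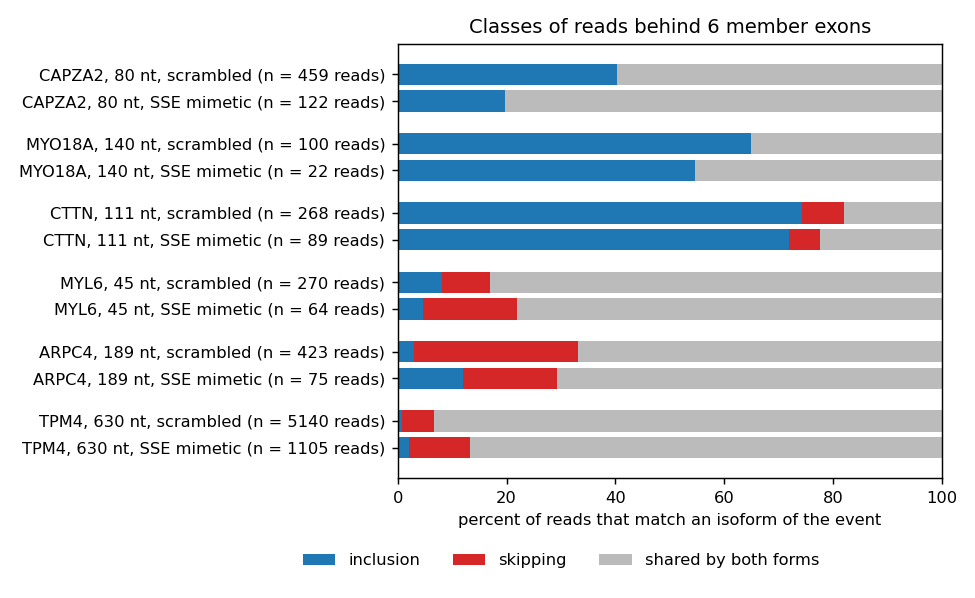
Share of inclusion, skipping and shared reads (x axis, percent of the reads that match an isoform) in 6 member exons, 2 bars each for the scrambled and SSE mimetic read sets, with the number of reads in the label. The CAPZA2 and MYO18A bars hold no skipping reads, and in the ARPC4 bars inclusion takes a larger part in the mimetic pool.

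ARPC4 had 5 listed exons, all tested and none called. The 3 coding exons had a Ψ of 0.83 or more in both read sets. The exon of 112 nt (chromosome 3, 9800185 to 9800296) was at a Ψ of 0.96 (0.87 to 1.00) in the SSE mimetic read set and 0.99 (0.97 to 1.00) in the scrambled one. The exon of 171 nt had 0.95 (0.83 to 1.00) and 0.99 (0.97 to 1.00). The exon of 96 nt (9801661 to 9801756) had 0.83 (0.60 to 0.99) and 0.89 (0.78 to 0.96). In each pair the intervals overlap. None of the 3 had more than 1 skipping read in a group. For none of them does an annotated transcript of the gene hold the junction that a skipping read has to cross. For the 112-nt and 171-nt exons, no annotated transcript holds both inclusion junctions of the event either. The gene shares 3 of its 5 listed exons with the readthrough gene ARPC4-TTLL3, and reads of both genes cannot be told apart there.

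The remaining ARPC4 exons lie in transcripts marked for nonsense-mediated decay. The 189-nt exon (9799879 to 9800067) brings a stop codon after 10 coding bases, as its first bases show.
ARPC4 189-nt exon, first 13 bases, stop codon in capitals: tcctcgccagTGA
It had 9 inclusion, 13 skipping and 53 shared reads in the mimetic pool and 13, 127 and 283 in the scrambled pool. Its Ψ was 0.11 (0.05 to 0.19) and 0.02 (0.01 to 0.04), so the intervals did not overlap. The difference of 0.09 and the Bayes factor of 2.3 in the authors' deposited table both fell short of a call. The share of inclusion reads was 0.409 (Clopper-Pearson 95% interval 0.207 to 0.636) and 0.0929 (0.0504 to 0.154). Fisher's exact test on these reads, two-sided and adjusted over all tested exons by Benjamini-Hochberg, gave 0.0499 (unadjusted 0.000504), and this was the 1 member exon it passed. The test compares these 2 read pools, not the conditions, and 1.01% of all tested exons passed it. One flanking intron is 117 nt long and the other 2101 nt. When the read density of the flanking introns was subtracted, no inclusion read was left in either group and the recomputed difference was 0.01. The subtraction stops at 0, so it does not show that every inclusion read came from an intron. With the test widened to exons with at least 1 isoform-specific read in each group, a choice made after seeing the data, 0 of 41 member exons passed. The 172-nt exon (9803536 to 9803707) had 1 and 7 inclusion reads against 22 and 101 skipping reads, and a Ψ of 0.03 (0.00 to 0.06) and 0.02 (0.01 to 0.04).

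The tropomyosin genes held 18 of the member exons, of which 11 were tested and none was called. A 134-nt coding exon of like sequence occurs in TPM1, TPM3 and TPM4 and had a Ψ of 0.92 or more in both read sets in each gene. Its event joins it to 1 upstream exon. That junction is held by 7 of 34 annotated TPM1 transcripts, 9 of 23 in TPM3 and 6 of 24 in TPM4. Ψ here is that of the event, not of all transcripts of the gene. The 3 sequences are set side by side to show how far reads of the family can be told apart. Capitals mark positions at which the 3 are not all the same.
TPM1 exon, chr15:63056985-63057118, plus strand: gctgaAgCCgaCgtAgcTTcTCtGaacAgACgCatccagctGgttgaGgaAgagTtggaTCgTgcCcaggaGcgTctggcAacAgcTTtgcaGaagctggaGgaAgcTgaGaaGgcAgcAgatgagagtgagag
TPM3 exon, chr1:154176115-154176248, minus strand: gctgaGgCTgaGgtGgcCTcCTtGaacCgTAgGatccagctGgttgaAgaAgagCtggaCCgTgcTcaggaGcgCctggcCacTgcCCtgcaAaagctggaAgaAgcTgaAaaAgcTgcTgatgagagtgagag
TPM4 exon, chr19:16081913-16082046, plus strand: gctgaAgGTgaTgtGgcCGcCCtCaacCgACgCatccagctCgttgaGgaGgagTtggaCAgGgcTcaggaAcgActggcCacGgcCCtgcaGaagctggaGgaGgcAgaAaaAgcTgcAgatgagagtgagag
TPM1 was identical to TPM3 and to TPM4 at 108 of 134 positions (80.6%), and TPM3 to TPM4 at 111 (82.8%). The last stretch of the exon is the same in all 3.

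The Ψ of the 134-nt exon was 0.92 (0.78 to 0.99) in the mimetic pool and 0.99 (0.96 to 1.00) in the scrambled pool in TPM1. In TPM3 it was 0.99 (0.97 to 1.00) and 0.99 (0.98 to 1.00), and in TPM4 0.99 (0.97 to 1.00) and 1.00 (0.99 to 1.00). The TPM1 exon rests on 31 and 194 inclusion reads, the TPM3 exon on 318 and 1270, and the TPM4 exon on 227 and 1118. The wider interval in TPM1 goes with the smaller number of reads. Skipping reads were 0 and 0 in TPM1, 1 and 4 in TPM3, and 0 and 0 in TPM4. TPM3 also had a 65-nt form of this exon, with the same flanks, at 0.98 (0.95 to 1.00) and 0.99 (0.98 to 1.00). The 65-nt form lies inside the 134-nt exon, and its 167 and 854 inclusion reads can come from that exon. Its Ψ therefore does not give the use of the short form. Processed pseudogenes are annotated for TPM3, TPM4 and MYL6, and reads shared with them were not examined.

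In TPM1 a pair of adjacent 76-nt exons gives the protein alternative versions of one internal stretch. In the annotation 12 transcripts hold the upstream exon, 13 the downstream one, and 3 hold both. They are shown with capitals where they differ, and 43 of 76 positions are the same (56.6%).
TPM1 upstream exon, chr15:63061198-63061273: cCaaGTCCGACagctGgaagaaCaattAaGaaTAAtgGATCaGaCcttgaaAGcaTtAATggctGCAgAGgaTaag
TPM1 downstream exon, chr15:63061713-63061788: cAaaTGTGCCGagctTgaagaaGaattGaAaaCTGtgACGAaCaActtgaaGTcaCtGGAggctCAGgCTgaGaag
The upstream exon had 28 inclusion reads in the mimetic pool and 205 in the scrambled pool, and its Ψ was 0.92 (0.79 to 0.99) and 0.99 (0.95 to 1.00). No read joined the exon before the pair directly to the downstream exon. The downstream exon had no inclusion read, and 5 and 51 reads skipped it, with a Ψ of 0.11 (0.00 to 0.36) and 0.01 (0.00 to 0.04). Both read sets thus used the upstream version in the reads that could tell, and the downstream exon was short of reads for a test. The TPM1 exon of 118 nt (63059563 to 63059680) had 26 and 179 inclusion reads, no skipping read, and the largest difference of the tested exons of the gene, with a Ψ of 0.88 (0.66 to 0.98) and 0.98 (0.92 to 1.00).

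The 3′ end of tropomyosin genes offers a choice of exons that encode the end of the protein. A 79-nt exon there is alike in TPM1 and TPM3, with 68 of 79 positions the same (86.1%), and capitals mark the others.
TPM1 79-nt exon, chr15:63064064-63064142: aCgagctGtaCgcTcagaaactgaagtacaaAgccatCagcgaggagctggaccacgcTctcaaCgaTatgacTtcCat
TPM3 79-nt exon, chr1:154169305-154169383: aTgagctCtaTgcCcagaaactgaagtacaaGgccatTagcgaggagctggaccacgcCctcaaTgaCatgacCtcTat
In TPM3 this exon was skipped in nearly all informative reads, with 90 skipping and 0 inclusion reads in the mimetic pool and 464 and 6 in the scrambled pool. Its Ψ was 0.01 (0.00 to 0.03) and 0.01 (0.00 to 0.02). The TPM1 exon had 0 and 1 inclusion reads and no skipping read, and its Ψ of 0.41 (0.03 to 0.88) and 0.39 (0.11 to 0.80) has intervals too wide to place it. Another TPM3 exon, of 63 nt (chromosome 1, 154170649 to 154170711, minus strand), was kept in 171 of 171 and 1086 of 1086 isoform-specific reads. Its Ψ was 0.98 (0.95 to 1.00) and 1.00 (0.99 to 1.00).

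TPM4 has a similar exon of 94 nt (chromosome 19, 16095264 to 16095357), in which the stop codon follows 80 coding bases, and a 630-nt form with the same start.
TPM4 94-nt exon to its stop codon, in capitals: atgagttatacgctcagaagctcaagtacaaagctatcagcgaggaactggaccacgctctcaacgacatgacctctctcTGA
The 94-nt form had no inclusion read in either group, against 125 and 308 skipping reads. The 630-nt form, annotated in 1 transcript marked for nonsense-mediated decay, had 22 and 36 inclusion reads and the same skipping reads. Its Ψ was 0.04 (0.03 to 0.06) in the mimetic pool and 0.02 (0.01 to 0.02) in the scrambled pool. These intervals were apart, the difference of 0.02 was under the size set for a call, and Fisher's exact test gave an adjusted p of 1. Once the intron read density was taken off, with the same stop at 0, no inclusion read was left in either group. A 93-nt TPM4 exon (16093040 to 16093132), which brings a stop codon after 18 coding bases, had the most isoform-specific reads of the gene.
TPM4 93-nt exon to its stop codon, in capitals: agacggggtctcactatgTGA
It was passed over by 317 skipping reads in the mimetic pool and 1650 in the scrambled pool, against 0 and 1 inclusion reads, and its Ψ was 0.00 in both.

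MYL6 had 7 listed exons, 4 of them tested, and none was called. Its 45-nt exon (chromosome 12, 56160626 to 56160670) is known as the switch between the non-muscle and smooth-muscle ends of the light chain. When it is kept, it supplies the stop codon after 26 coding bases.
MYL6 45-nt exon to its stop codon, in capitals: cgtttgtgaggcatatcctgtcggggTGA
It had 3 inclusion, 11 skipping and 50 shared reads in the mimetic pool and 22, 24 and 224 in the scrambled pool. Its Ψ was 0.16 (0.04 to 0.34) and 0.25 (0.17 to 0.35), with overlapping intervals and a Bayes factor of 0.46 in the authors' deposited table. The share of inclusion reads was 0.214 (Clopper-Pearson 95% interval 0.0466 to 0.508) and 0.478 (0.329 to 0.631), and Fisher's exact test gave an adjusted p of 1 (unadjusted 0.122). The exon was thus of mixed use in both read sets, and it did not pass either test, which does not show that the groups were alike. The 144-nt coding exon (56159587 to 56159730) had the most isoform-specific reads of any member, 1013 and 3127, and a Ψ of 0.99 (0.97 to 1.00) and 0.97 (0.94 to 0.99). A 108-nt form of it had 0.99 (0.97 to 1.00) and 0.98 (0.95 to 1.00). Its inclusion reads can come from the 144-nt exon, inside which it lies, so this Ψ does not give the use of the 108-nt form. An upstream 39-nt exon was skipped by 96 of 96 and 357 of 357 isoform-specific reads.

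MYO18A had 5 listed exons, 2 of them tested, and none was called. The 140-nt coding exon (chromosome 17, 29086438 to 29086577, minus strand) had 12 and 65 inclusion reads and no skipping read. Its Ψ was 0.85 (0.55 to 0.97) in the mimetic pool and 0.97 (0.90 to 1.00) in the scrambled pool, and the intervals overlap. The 111-nt exon had 12 and 18 inclusion reads and a Ψ of 0.88 (0.66 to 0.99) and 0.86 (0.61 to 1.00). A 45-nt exon (29085604 to 29085648) was of mixed use. It is coding, preserves the frame and is annotated in 1 transcript.
MYO18A 45-nt exon: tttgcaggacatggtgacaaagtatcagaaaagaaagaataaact
Inclusion reads numbered 2 in the mimetic pool and 8 in the scrambled pool, and skipping reads 1 and 7, too few for a test. Its Ψ was 0.45 (0.09 to 0.88) and 0.41 (0.21 to 0.62).

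CTTN had 2 listed exons. Cortactin binds filaments through a row of repeats, and the 111-nt exon (chromosome 11, 70421470 to 70421580) codes for part of that row, as does the exon before it. The 2 exons have the same length and are the same at 73 of 111 positions (65.8%). Capitals mark the others.
CTTN upstream exon, chr11:70420400-70420510: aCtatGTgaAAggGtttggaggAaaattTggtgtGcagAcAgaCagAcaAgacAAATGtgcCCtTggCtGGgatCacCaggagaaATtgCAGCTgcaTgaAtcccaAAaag
CTTN 111-nt cassette exon, chr11:70421470-70421580: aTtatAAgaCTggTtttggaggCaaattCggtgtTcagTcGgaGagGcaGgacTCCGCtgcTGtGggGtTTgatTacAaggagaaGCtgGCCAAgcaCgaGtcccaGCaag
It was the tested member of intermediate Ψ with the most isoform-specific reads. Inclusion reads numbered 64 in the mimetic pool and 199 in the scrambled pool, and skipping reads 5 and 21. Its Ψ was 0.78 (0.64 to 0.90) and 0.77 (0.69 to 0.84), a difference of 0.01. The share of inclusion reads was 0.928 (Clopper-Pearson 95% interval 0.839 to 0.976) and 0.905 (0.858 to 0.940). The 5 and 21 skipping reads also serve the second CTTN event, a 123-nt exon of a noncoding transcript between the same flanks. That exon had 0 and 6 inclusion reads, a Ψ of 0.03 (0.00 to 0.12) and 0.06 (0.03 to 0.11), and was not tested.

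CALD1 had 5 listed exons and none had the reads for a test, with 0 to 7 isoform-specific reads each in the mimetic pool and 5 to 36 in the scrambled pool. The 78-nt coding exon (chromosome 7, 134935688 to 134935765) had 70 and 208 shared reads but 0 and 7 isoform-specific reads, and a Ψ of 0.10 (0.00 to 0.36) and 0.10 (0.04 to 0.22). An exon of 115 nt, in a transcript marked for nonsense-mediated decay, had the largest difference among untested members, with a Ψ of 0.48 (0.16 to 0.81) against 0.15 (0.06 to 0.29). It rests on 5 inclusion and 2 skipping reads against 4 and 4, its intervals overlap, and the authors' deposited table gives it a Bayes factor of 1.74.

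In all, 20 member exons were not tested, 13 because both groups fell short of the read minimum and 7 because the SSE mimetic group alone did. Besides those described, they were 5′ exons of TPM1 (363 nt and 2 exons of 126 nt), its 127-nt 3′ exon, a 105-nt exon of TPM3, MYL6 exons of 125, 36 and 77 nt, MYO18A exons of 1274 and 36 nt, and CALD1 exons of 37, 86 and 42 nt. Differences among the untested exons ran from -0.29 to 0.33 and no Bayes factor was above 1.74. By annotation, 25 of the 44 exons were coding throughout, 4 in part, 8 lay in transcripts marked for nonsense-mediated decay and in no coding transcript, 6 in noncoding transcripts and 1 in a UTR. A length that is a multiple of 3 was found for 23 of the 44. There were 12 exons that overlap another member exon and share reads with it.

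Ψ in these tables depends on the balance of inclusion and shared reads wherever skipping reads are few. Of the 24 tested members 10 had no skipping read in either group, as had 4509 of all 8228 tested exons. The ratio of scrambled to SSE mimetic reads was therefore compared between classes. Over the 24 exons it was 3.76 for inclusion reads, 5.02 for shared reads and 2.90 for reads matching neither form. Over all tested exons it was 4.66, 4.61 and 1.89. By gene, over all listed exons whether tested or not, the ratio of isoform-specific reads was 3.02 in MYL6, 3.32 in MYO18A, 3.34 in CTTN, 3.89 in CALD1, 4.19 in TPM4, 4.92 in TPM3, 5.32 in ARPC4, 6.62 in TPM1 and 7.13 in CAPZA2. These are ratios of raw reads from 1 read set per group and do not measure expression. Sums over overlapping exons, in the set and by gene, count some reads more than once. The 495 and 2667 shared reads of the MYL6 144-nt exon, for instance, are also those of its 108-nt form.

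**Figure D4:**
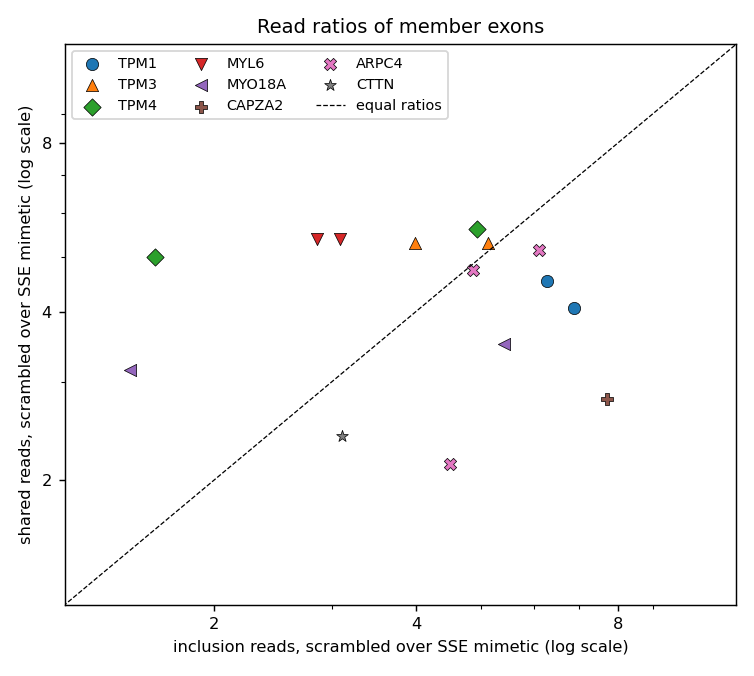
Ratio of scrambled to SSE mimetic reads for inclusion reads (x axis, log scale) and shared reads (y axis, log scale) in the 15 tested member exons with at least 10 inclusion and 5 shared reads in the mimetic pool, 1 symbol per gene. CAPZA2 lies far below the line of equal ratios, at 7.71 and 2.80, and both MYL6 exons lie above it.

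The named exons were also computed in other ways from the same reads. For CAPZA2 the difference was -0.479 with a 2-isoform model on the deposited reads, -0.455 after subtraction of the intron read density and -0.430 with the scrambled reads scaled down to the SSE mimetic total. It passed the criteria in each, with Bayes factors of 102.2, 45.4 and 22.3 in that order. The authors' deposited table gives 2646.89. The values of 45.4 and 22.3 lie under the stricter minimum of 100, which was tried on the deposited Bayes factors alone. These recomputations start from the same inclusion and shared reads, with no skipping read, and so are not separate evidence for the difference. With the share of inclusion reads in place of Ψ the CAPZA2 difference was 0, which the lack of skipping reads fixes. No other named exon met the Bayes factor and size criteria in any of the recomputations. Against the same model on unscaled reads, scaling made the absolute difference smaller in 12 of the 16 named exons and larger in 4. In the TPM1 76-nt exon it went from -0.051 to 0.00, in the TPM1 118-nt exon from -0.0953 to -0.0361, and in the 140-nt MYO18A exon from -0.108 to -0.0277. The 4 in which it was larger were the TPM1 79-nt exon (-0.0652 to -0.205), the MYL6 45-nt exon (-0.106 to -0.119), the MYL6 144-nt exon (0.0201 to 0.0407) and the CTTN 111-nt exon (0.0224 to 0.0299).

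**Figure D5:**
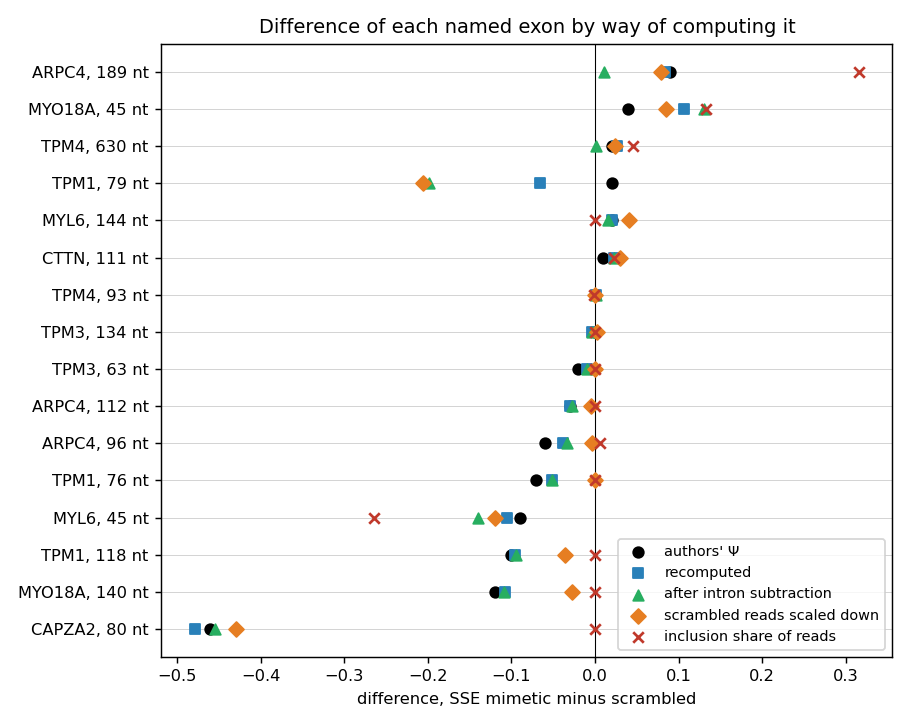
Difference between the groups (x axis) of each of the 16 named exons (y axis) as given by the authors, as recomputed with a 2-isoform model in 3 ways, and as the share of inclusion reads. The CAPZA2 values stay between -0.479 and -0.430 in the model and stand at 0 for the share of inclusion reads.

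Other genes of the actin filament were taken from a list of 135, of which 107 had a listed exon and 63 a tested one. Of their 130 tested exons, 3 were called higher in the mimetic pool, 3 lower, and 124 did not pass. That is 4.62% called, near the 3.99% of the whole table, with 2.31% in each direction against 3.1% higher and 0.887% lower there. Credible intervals were apart for 11 of the 130 (8.46%). The 3 higher exons were in subunits of the WAVE complex, which switches on Arp2/3. A 183-nt exon of ABI2 (chromosome 2, 203396785 to 203396967) had a Ψ of 0.60 (0.39 to 0.83) against 0.12 (0.06 to 0.19), and a 171-nt exon of the same gene 0.84 (0.64 to 0.98) against 0.34 (0.15 to 0.56). A 132-nt exon of CYFIP1 had 0.53 (0.28 to 0.79) against 0.14 (0.05 to 0.27). They rest on 17, 12 and 14 isoform-specific reads in the mimetic pool, and none was left with a minimum of 20. The 183-nt ABI2 exon was the 1 exon of the list that passed Fisher's exact test, with an adjusted p of 0.0222 (0.769% of the list).

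The 3 lower exons had no skipping read in either group, which held for 47 of the 73 exons called lower in the whole table. It also held for 4509 of all 8228 tested exons. Of the 91 called exons without a skipping read, 47 were lower and the rest higher, so this trait is not particular to lower calls. A 105-nt exon of PPP1R12A, which encodes the targeting subunit of myosin phosphatase, had a Ψ of 0.61 (0.35 to 0.89) against 0.96 (0.90 to 0.99). A 127-nt exon of ANLN, which encodes the cytokinesis protein anillin, had 0.64 (0.47 to 0.81) against 0.99 (0.96 to 1.00). A 503-nt exon of ACTB, the beta-actin gene, had 0.88 (0.84 to 0.93) against 1.00 (1.00 to 1.00), on 3105 and 9046 inclusion reads. It contains a listed 240-nt exon with a Ψ of 1.00 in both groups, on 3031 and 8738 inclusion reads. Both ACTB events had the same 3090 and 5328 shared reads. How many of the inclusion reads belong to the 503-nt form was not tested. The other subunits of capping protein had tested exons in CAPZA1 (40 nt, 0.08 against 0.01) and CAPZB (113, 77 and 90 nt, with differences of 0.03, 0.03 and -0.03), and none was called. By list, calls numbered 3 of 32 tested exons among the Arp2/3 complex and its activators, 0 of 31 among capping, severing and monomer-binding genes, and 0 of 9 among formins and Ena/VASP proteins. They numbered 1 of 25 among myosins and their regulators and 2 of 33 among actins and other side binders.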

How the data were processed

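RNA from MDA-LM2 cells, 2 samples per group, was sequenced. The submitters' processing notes name STAR 2.7 and hg38. Per the file headers, the deposited tables are MISO skipped-exon summaries with 1 read set per group. Ψ is deposited as a fraction with interval bounds, the Bayes factor as a ratio, and the reads of each class as text in other units. How samples were combined is not given in the sources used here.

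Events were matched to GENCODE 29 exons. Events with the same skipped exon were reduced to the one with the most isoform-specific reads (39120 exons). Fisher's exact test ran over all 8228 tested exons (scipy 1.17.1). Ψ and Bayes factors were recomputed with a 2-isoform likelihood on 76-nt reads, the best of 8 lengths tried, with a Pearson correlation with the deposited Ψ across exons of 0.997 and 0.999. It was tested on simulated data. Intron subtraction used reads matching neither form over both flanking introns, which can include reads of other exons there. Exons were named when called, passed by Fisher's test, best covered, most different or of intermediate use within their gene, and the rest are given to account for every exon. The members, lists, rule and criteria were chosen with earlier results of these data known.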

Additional observations from a re-analysis of the deposited data

How the results depend on the processing

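The member counts, 0 higher and 1 lower (CAPZA2), were the same with no read minimum and in the 3 recomputations. They were also the same with a Bayes factor of at least 100, a Ψ difference of at least 0.2 or a minimum of 20 reads. These stricter settings can only remove calls, and the CAPZA2 exon, at 2646.89, -0.46 and 24 and 185 isoform-specific reads, passes each by its values. Another choice of event could not change a member, because the 44 member exons have 1 event each. With Fisher's exact test in place of the Bayes factor 0 members were lower. This test gives a p of 1 wherever no read skips the exon, as in CAPZA2, and it called 67 exons higher and 0 lower in the whole table, so the lost call says nothing about CAPZA2. Of the other actin filament exons, 3 higher and 3 lower, the higher count was 0 with 20 reads, 1 with Fisher's test and 1 with scaled reads. The lower count was 0 with Fisher's test, fixed in the same way by the lack of skipping reads, 1 with the 2-isoform model and 1 with scaled reads, ACTB in both. The 1 member past Fisher's test, ARPC4, became 0 with a minimum of 1 read, an alternative chosen after seeing the data, and stayed 1 with 20 reads. It also stayed 1 with the other event, a setting that leaves the reads of member exons as they are. Of 95 values of named exons under the alternatives, 92 kept the same outcome, 2 were weaker (CAPZA2) and 1 was stronger (ARPC4 189 nt). The count of 92 overstates stability, because part of it was fixed in advance. The other-event setting repeats the main value of each of the 16 named exons. Named exons short of the read minimum were not open to a call and had no Fisher value. None of the 95 values reversed a call, which only a called exon could show. Signs did change in exons without a call, as in the TPM1 79-nt exon, 0.02 as deposited and -0.205 with scaled reads. No paired analysis was possible because each group is 1 read set. Leaving out a sample could not be run for the same reason. Intervals were wider in the SSE mimetic group, with a median width of 0.095 over the tested members against 0.03.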

Other observations

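A further 4 member events were listed in 1 group summary alone and enter no comparison. The SSE mimetic summary alone held a 160-nt CAPZA2 exon (chromosome 7, 116861191 to 116861350) with a Ψ of 0.57 (0.10 to 0.99) on 1 inclusion read. It also held 2 events of a 69-nt MYO18A exon (chromosome 17, 29137016 to 29137084), at 0.67 (0.22 to 0.99) and 0.47 (0.07 to 0.85), on 1 inclusion read and on 1 shared read. The scrambled summary alone held a 21-nt MYO18A exon (29117690 to 29117710) at 0.33 (0.04 to 0.91) on 1 shared read.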
